A study of Mus musculus with 12 samples.

Results

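Glycolysis genes and hypoxia response genes were followed in the mouse lens through the first 48 h after removal of the fiber cells, in wild type mice and in mice lacking fibronectin conditionally. The genes were chosen by name: 21 carry sugar through glycolysis, move its substrates and products across the plasma membrane or regulate it, and 11 belong to the cell's response to low oxygen. All 32 were found among the 24147 genes of the count files, and 31 of them were among the 14560 genes with enough counts to be tested. The exception was the enolase gene Eno1.

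Libraries were made from lens capsules with their attached lens epithelial cells, from mice aged 2 months, after the fiber mass had been taken out through the cornea as in cataract surgery. The 4 groups of 3 libraries were wild type (WT, strain C57BL/6) at 0 h, WT at 48 h, and a fibronectin conditional knockout (FNcKO, mixed background of C57BL/6, 129 and FVB/N) at 0 h and at 48 h. Every group, the 0 h groups included, had undergone fiber removal, so no group holds the undisturbed lens. Genotype and strain cannot be told apart in any comparison of FNcKO with WT. The series calls its replicates biological, while the number of lenses or animals behind a library, the Cre driver and the deleted exons remain not given in the sources used here.

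Glycolysis splits glucose into pyruvate in the cytosol, and pyruvate either becomes lactate or enters the mitochondria. The lens has no blood vessels and lives at low oxygen, and glycolysis is a main source of its energy. When oxygen is scarce, prolyl hydroxylases stop marking the transcription factor subunit HIF-1 alpha for destruction. HIF-1 then raises transporters and enzymes of glycolysis together with genes for vessel growth, mitophagy and pH control.

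Library totals ran from 8368160 to 10862573 counts. Levels are counts scaled to library size by trimmed mean of M values (CPM), given as mean ± SD over 3 libraries. Fn1, which encodes fibronectin, stood at 19.0, 23.1 and 15.5 CPM in the WT 0 h libraries and at 16.8, 9.81 and 8.32 in the FNcKO 0 h libraries. At 48 h it stood at 1515, 528 and 979 CPM in WT and at 146, 298 and 688 in FNcKO, so FNcKO replicate 3 lay above WT replicate 2. Whole-gene counts can include reads outside a deleted stretch, so these levels do not check the genotype. The summed level of 14 lens fiber markers was 32467 to 54933 CPM in WT at 0 h and 2930 to 16583 at 48 h, and 40507 to 77182 and 2019 to 26264 CPM in FNcKO, with no overlap between the times. The lowest 48 h sums belonged to WT replicate 1 and FNcKO replicate 3. The summed level of 9 epithelial markers also ran lower, at 20117 to 34199 CPM against 3852 to 9967 in WT, and 26989 to 53526 against 2909.8 to 17550.5 in FNcKO. This list includes the crystallin gene Cryab, so the sum need not follow each marker. Past the threshold given below, 1 of the 9, Epha2, rose and 5 fell in each genotype. Of all genes 19.1% rose and 13.5% fell in WT, and 14.9% and 9.9% in FNcKO. Neutrophil markers summed to at most 12.1 CPM at 0 h and to 64.3 to 601 at 48 h, highest in WT replicate 1. Macrophage markers summed to 54.1 to 161 CPM at 0 h and 160.1 to 567 at 48 h, photoreceptor markers to between 293 and 6613 CPM over all libraries. Of 8 endothelial markers, summing to 4.14 to 80.2 CPM, 4 rose over time in WT and 6 in FNcKO, against 19.1% and 14.9% of all genes. Pigment cell markers summed to 151 to 296 CPM at 0 h, and at 48 h to 171.5 to 438 CPM in WT and 17.7 to 67.4 in FNcKO. Of erythroid markers only 1 of 5 had enough counts to be tested, and it did not pass. In such mixed tissue, fewer cells of a type and less RNA per cell cannot be told apart.

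The comparison of 48 h with 0 h asked how the cells left on the capsule respond to surgery. In WT, 1 glycolysis gene rose and 4 fell past the threshold, which was a Benjamini-Hochberg (BH) adjusted p under 0.05 in edgeR's quasi-likelihood test over all tested genes, and 15 did not pass. Of all tested genes 32.6% passed, 19.1% up and 13.5% down. In FNcKO, 1 glycolysis gene rose, 7 fell and 12 did not pass, where 24.8% of all genes passed, 14.9% up and 9.9% down. The gene that rose was Hk1 in both genotypes, and Slc2a1, Pfkm, Aldoc and Pdk1 fell in both. The median log2 change of the 20 tested glycolysis genes was 0.09 in WT and −0.40 in FNcKO, against 0.016 and 0.0018 over all tested genes. For 11 glycolysis genes in WT and 7 in FNcKO the 0 h and 48 h libraries were fully separate, against 51.5% and 37.5% of all genes. The plot of fold changes for all members shows most glycolysis genes within 1 of 0 on the log2 scale, and Aldoc and Pdk1 beyond it in both genotypes.

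**Figure D1:**
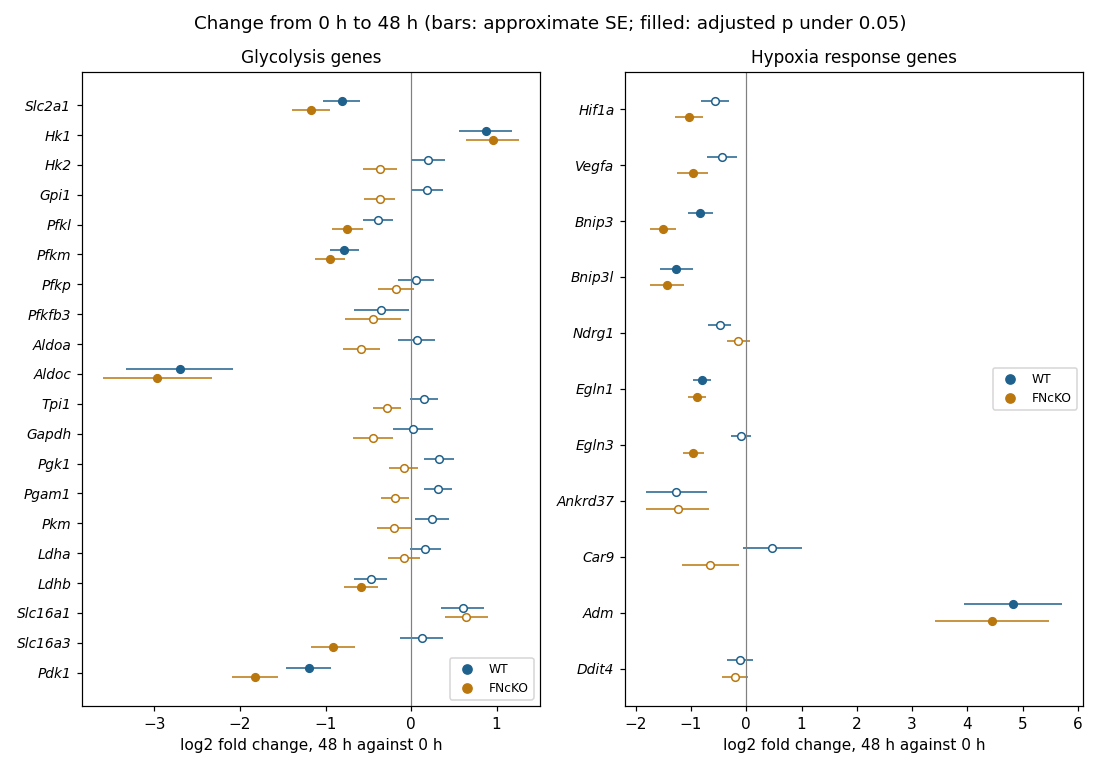
Log2 fold change at 48 h against 0 h for each tested member, glycolysis genes on the left and hypoxia response genes on the right, WT in blue and FNcKO in orange. Bars are approximate SEs and filled points have an adjusted p under 0.05; Aldoc lies farthest to the left and Adm farthest to the right in both genotypes.

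Glucose enters through GLUT1, encoded by Slc2a1. Its level was 980.5, 1162 and 1389.8 CPM in the WT 0 h libraries and 622, 732 and 659 at 48 h. In FNcKO it was 1400.4, 1237 and 1670.1 CPM at 0 h and 767, 636 and 507 at 48 h. Every 48 h library lay below every 0 h library of its genotype, and Slc2a1 fell 1.75-fold in WT (log2 −0.81, SE 0.22, BH-adjusted p = 0.0128 by edgeR) and 2.25-fold in FNcKO (−1.17, SE 0.22, BH-adjusted p = 0.00211). The WT call was lost without WT 0 h replicate 3 (−0.67, BH-adjusted p = 0.0602 by edgeR) or without WT 48 h replicate 1 (−0.76, 0.0541).

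The first step, phosphorylation of glucose, is carried out by hexokinases. Hk1, the widely expressed form, stood at 167 ± 46.7 CPM in WT at 0 h and 305 ± 89.5 at 48 h, a 1.83-fold rise without overlap of the libraries (log2 0.87, SE 0.31, BH-adjusted p = 0.0454 by edgeR). In FNcKO it went from 119 ± 36.0 to 229.9 ± 68.8 CPM (0.95, SE 0.31, BH-adjusted p = 0.0394), where the 48 h library of replicate 2, at 150.5 CPM, lay below the highest 0 h library, at 154. Both calls were near the threshold, and each was lost in 10 of 23 alternatives, 5 of them single libraries of its own genotype left out in WT and 4 in FNcKO. Hk2, the isoform that HIF-1 induces in many tissues, was at 76.8 ± 14.5 and 88.3 ± 21.6 CPM in WT and at 116 ± 16.8 and 90.0 ± 8.40 in FNcKO, and passed in neither genotype. Gpi1, the isomerase of the second step, passed in neither genotype either, with log2 changes of 0.19 in WT and −0.37 in FNcKO.

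Phosphofructokinase commits sugar to glycolysis, and 3 genes encode its liver, muscle and platelet subunits. The muscle subunit Pfkm was at 76.8, 67.2 and 53.2 CPM in WT at 0 h and at 38.8, 37.6 and 38.5 at 48 h, and in FNcKO at 73.3, 61.3 and 72.7 and then 42.6, 34.2 and 30.9. The times did not overlap in either genotype, and Pfkm fell 1.72-fold in WT (log2 −0.78, SE 0.17, BH-adjusted p = 0.00401 by edgeR) and 1.93-fold in FNcKO (−0.95, SE 0.17, BH-adjusted p = 0.00172). The liver subunit Pfkl was at 188 ± 9.64 and 144 ± 6.37 CPM in WT, with no overlap but short of the threshold (log2 −0.38, BH-adjusted p = 0.113). It passed there when only the WT groups were fitted (−0.39, BH-adjusted p = 0.0392 by edgeR). In FNcKO Pfkl fell from 204 ± 24.8 to 122 ± 28.4 CPM (−0.75, SE 0.18, BH-adjusted p = 0.0084 by edgeR), a call that scaling by total counts ended (−0.45, 0.101). The platelet subunit Pfkp, at 172 to 207 CPM in the 4 group means, and Pfkfb3, which makes the allosteric activator of phosphofructokinase, passed in neither genotype. Pfkfb3 was lowest in FNcKO 48 h replicate 3, at 33.9 CPM beside 103 and 86.6 in the other libraries of that group.

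Aldolase cleaves the 6-carbon sugar, and its isoform C gave the largest fall among the members. Aldoc stood at 1902, 1203 and 1643 CPM in WT at 0 h and at 99.9, 349 and 279 at 48 h. In FNcKO it stood at 2545, 2008 and 3202 CPM at 0 h and at 543, 375 and 73.9 at 48 h. The lowest 48 h values belonged to WT replicate 1 and FNcKO replicate 3, the libraries with the least fiber marker signal. Aldoc fell 6.52-fold in WT (log2 −2.71, SE 0.63, BH-adjusted p = 0.00711 by edgeR) and 7.82-fold in FNcKO (−2.97, SE 0.63, BH-adjusted p = 0.00598), and passed in all 23 alternatives. Without those libraries it fell by 2.35 and 2.50 on the log2 scale. With the summed fiber marker level as a covariate, the fall was 1.06 in WT and 1.41 in FNcKO on the log2 scale. Within groups, Aldoc ranked the 3 libraries in the same order as the fiber marker sum in 3 of 4 groups, a ranking not made for all genes. Aldoa, the isoform of muscle and most other tissues, was at 789 ± 64.1 and 824 ± 133 CPM in WT. In FNcKO it was at 989 ± 203 and 660.5 ± 113 CPM (log2 −0.58, BH-adjusted p = 0.0641 by edgeR), and passed there with DESeq2 (0.0122), without FNcKO 0 h replicate 2 (0.0417) or without FNcKO 48 h replicate 1 (0.041).

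**Figure D2:**
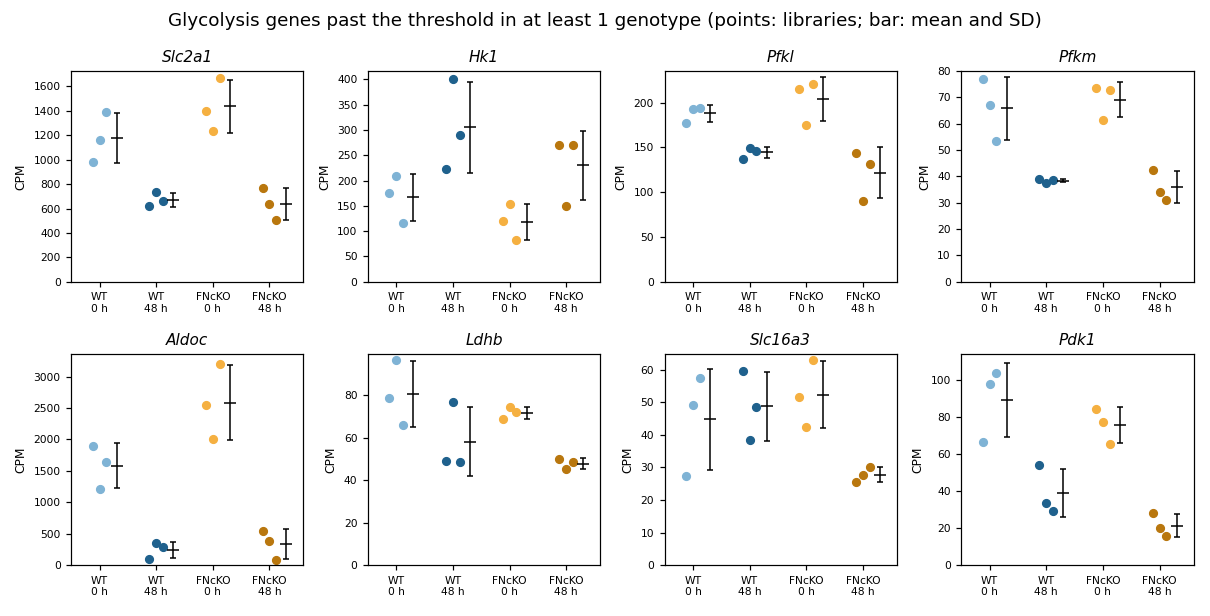
Level in CPM of the 8 glycolysis genes past the threshold in at least 1 genotype, 1 point per library, with bars at mean ± SD for each group. Aldoc, Slc2a1, Pfkm and Pdk1 lie lower at 48 h in all libraries of both genotypes, and Hk1 higher at 48 h in WT.

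Among the enzymes between aldolase and pyruvate, Gapdh and Pkm belong to the most abundant transcripts of glycolysis. Per kilobase of the gene length given in the files, Aldoc led in WT at 0 h with 929.9 ± 208 CPM per kb, followed by Gapdh, which oxidises glyceraldehyde phosphate, with 570.1 ± 77.0 and the pyruvate kinase gene Pkm with 509 ± 30.9. Slc2a1 with 458 ± 79.7 and Aldoa with 432 ± 35.1 CPM per kb lay within each other's spread. Tpi1, Pgk1 and Pgam1, for triose phosphate isomerase, phosphoglycerate kinase and phosphoglycerate mutase, lay together at 184 to 194 CPM per kb. Ldha lay above them at 285 ± 16.5. At 48 h Pkm with 604 ± 58.0 and Gapdh with 580.3 ± 54.6 CPM per kb were highest in WT, and Aldoc had dropped to 143 ± 75.5. In FNcKO, Aldoc had 1519 ± 352 CPM per kb at 0 h and 194 ± 139.5 at 48 h, while Gapdh had 812 ± 279 and 596.5 ± 17.9. None of Tpi1, Gapdh, Pgk1, Pgam1 and Pkm passed the threshold over time in either genotype. Their log2 changes were 0.03 to 0.33 in WT and −0.45 to −0.09 in FNcKO. Scaling by total counts moved the median log2 change of all genes to 0.23 in WT and 0.29 in FNcKO, and under it Pgk1 (log2 0.54, BH-adjusted p = 0.0286 by edgeR) and Pgam1 (0.53, 0.0304) passed in WT. Several of these genes have processed pseudogenes of near-identical sequence, and how reads with more than 1 matching place were counted remains not given in the sources used here, so their counts are less certain.

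Eno1 encodes the main enolase, the step between Pgam1 and Pkm, and was listed with 3 to 20 counts in a library, or 0.390 ± 0.101 CPM in WT at 0 h. The genes on either side of it, Pgam1 and Pkm, stood at 338 and 1322 CPM in that group. Eno1b, an entry on chromosome 18 whose full name calls it a retrotransposed copy, was chosen for a look after its values were seen. It held 32, 34 and 30 counts in WT at 0 h and 50, 39 and 549 at 48 h. In FNcKO it held 1206, 1469 and 1145 counts at 0 h and 1722, 1491 and 2094 at 48 h. All 6 FNcKO libraries thus lay far above 5 of the 6 WT libraries, and WT 48 h replicate 3, with 57.0 CPM, lay between the 3.21 to 4.76 CPM of the other WT libraries and the 134.8 to 221 CPM of FNcKO. Over time Eno1b passed the threshold in WT (log2 2.66, SE 0.89, BH-adjusted p = 0.0416 by edgeR), with the high counts in replicate 3 alone. At 0 h the FNcKO libraries lay above WT by 5.51 on the log2 scale (SE 0.95, BH-adjusted p = 0.074 by edgeR), which missed the threshold. Whether strain sequence, read placement or the make-up of that library moves these counts was not tested, and no enolase level of the tissue is drawn from them. Without WT 48 h replicate 3, the members called over time numbered 4 of the glycolysis and 4 of the hypoxia genes in WT and 7 and 7 in FNcKO, and the call lost in each genotype was Hk1. The muscle isoform Eno3 fell in both genotypes, from 54.1 ± 9.60 to 15.1 ± 7.02 CPM in WT (log2 −1.84, SE 0.39, BH-adjusted p = 0.0038 by edgeR) and from 58.0 ± 26.5 to 16.3 ± 4.06 in FNcKO (−1.83, SE 0.39, 0.00519).

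Lactate dehydrogenase turns pyruvate into lactate, with Ldha as the subunit of glycolytic tissue and Ldhb as that of oxidative tissue. Ldha was at 549.8 ± 31.9 and 617 ± 58.1 CPM in WT and at 551 ± 56.0 and 521 ± 93.1 in FNcKO, and passed in neither genotype. Ldhb was at 69.0, 74.4 and 72.0 CPM in FNcKO at 0 h and 49.9, 45.1 and 48.5 at 48 h. Those groups did not overlap and Ldhb fell (log2 −0.59, SE 0.19, BH-adjusted p = 0.0418 by edgeR), although 11 of 23 alternatives ended the call, among them leaving out any of the 6 FNcKO libraries (BH-adjusted p from 0.0561 to 0.12). In WT it was at 80.5 ± 15.5 and 58.2 ± 16.3 CPM, with overlap (−0.47, BH-adjusted p = 0.078 by edgeR), and it passed without WT 48 h replicate 2 (−0.72, 0.0102).

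Lactate leaves cells through monocarboxylate transporters. Slc16a3, the exporter MCT4, was at 51.7, 42.4 and 63.0 CPM in FNcKO at 0 h and at 25.6, 27.5 and 30.2 at 48 h. These libraries did not overlap, and the gene fell 1.88-fold (log2 −0.91, SE 0.25, BH-adjusted p = 0.0191 by edgeR). The call was lost without FNcKO 0 h replicate 3 (−0.80, BH-adjusted p = 0.0558 by edgeR), without FNcKO 48 h replicate 2 (−0.90, 0.0558) and with scaling by total counts (−0.61, 0.107). In WT its libraries overlapped, at 44.8 ± 15.5 and 48.8 ± 10.6 CPM (0.13, 0.725). Slc16a1, the transporter MCT1, was higher on average at 48 h in both genotypes and passed in neither (log2 0.60, BH-adjusted p = 0.0808 by edgeR in WT and 0.65, 0.0767 in FNcKO). It passed in FNcKO without FNcKO 0 h replicate 2 (0.89, 0.0339) and with scaling by total counts (0.92, 0.0448).

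Pdk1 encodes a kinase that switches off pyruvate dehydrogenase and so keeps pyruvate out of the mitochondria. It stood at 66.4, 97.7 and 103 CPM in WT at 0 h and at 53.8, 33.4 and 29.3 at 48 h, and in FNcKO at 84.3, 77.0 and 65.4 and then 28.3, 19.9 and 15.8. The times did not overlap in either genotype. Pdk1 fell 2.30-fold in WT (log2 −1.20, SE 0.26, BH-adjusted p = 0.00408 by edgeR) and 3.54-fold in FNcKO (−1.83, SE 0.27, BH-adjusted p = 0.000527), and passed in all 23 alternatives in both. With the fiber marker sum as a covariate its log2 change was −1.24 and −1.86.

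The proportions of isoenzymes within a family were compared next. Shares were computed from CPM per kb and compared by an exact two-sided permutation test over libraries, which cannot go below p = 0.1 with 3 against 3, and 28 such tests were made. Aldoc made up 71.3, 60.9 and 71.1% of Aldoa plus Aldoc in WT at 0 h and 12.6, 27.7 and 28.4% at 48 h. In FNcKO the share was 73.2, 73.4 and 74.3% and then 42.6, 41.6 and 11.1%, so isoform A outweighed C in every 48 h library and C outweighed A in every 0 h library. The Hk2 share of Hk1 plus Hk2 was 27.7 ± 2.11% and 19.9 ± 6.52% in WT and 45.0 ± 8.59% and 25.1 ± 5.31% in FNcKO, with no overlap in either. At 0 h the Hk2 share did not overlap between WT and FNcKO either, with a difference of 17.3 percentage points. Pfkm made up 18.2 ± 4.21% of phosphofructokinase in WT at 0 h and 12.5 ± 1.16% at 48 h, and 18.3 ± 0.638% and 13.7 ± 0.767% in FNcKO, while the Pfkp share went from 39.1 ± 6.35% to 48.9 ± 2.59% and from 37.6 ± 3.36% to 48.2 ± 7.11%. The Slc16a3 share of Slc16a1 plus Slc16a3 was 66.1 ± 10.8% and 40.4 ± 3.79% in FNcKO, without overlap, and 57.5 ± 7.14% and 50.4 ± 1.61% in WT, with overlap. Each comparison without overlap had an exact permutation p = 0.1, the smallest possible, and a BH-adjusted p = 0.215, so none passed.

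**Figure D3:**
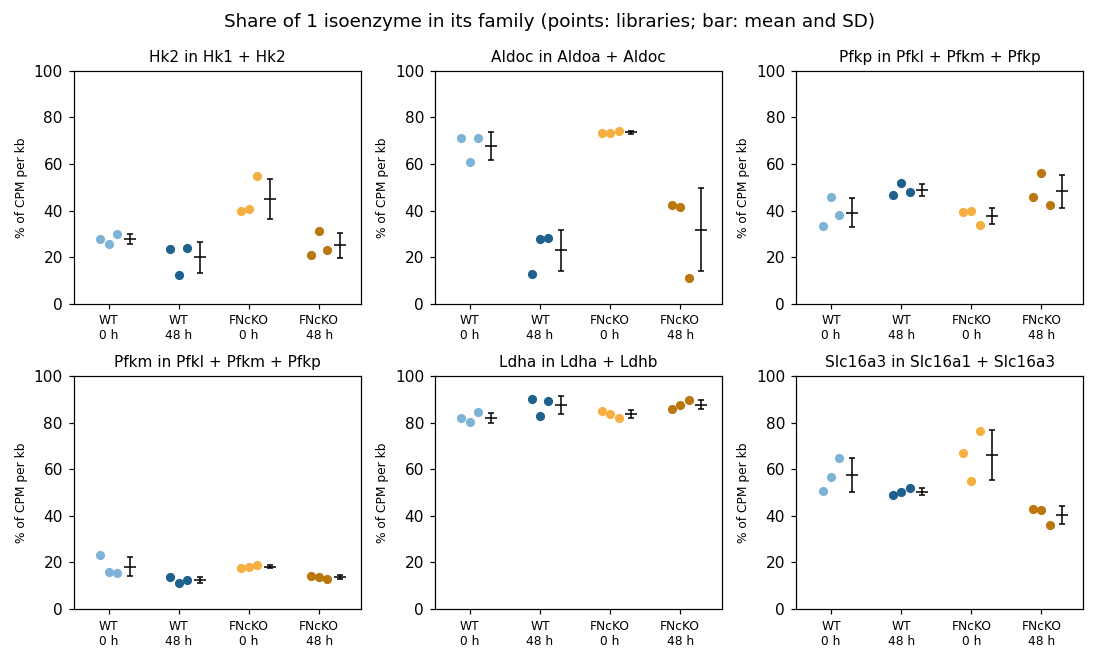
Share in percent of 1 isoenzyme in the summed CPM per kb of its family, 1 point per library, with bars at mean ± SD. The Aldoc share lies between 60.9 and 74.3% in the 0 h libraries and between 11.1 and 42.6% in the 48 h libraries.

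Of the 11 hypoxia response genes, 1 rose and 3 fell in WT and 1 rose and 6 fell in FNcKO, beside the shares of all genes given above. Adm rose in both genotypes, Bnip3, Bnip3l and Egln1 fell in both, and Hif1a, Vegfa and Egln3 passed in FNcKO alone; the difference between the genotypes passed for none of them. The median log2 change of the 11 genes was −0.48 in WT and −0.96 in FNcKO. For 5 of them in WT and 7 in FNcKO the 0 h and 48 h libraries were fully separate, against 51.5% and 37.5% of all genes. The genes that fell include the mitophagy receptors and oxygen sensors that HIF-1 induces in many cells, and the one that rose is a HIF-1 target too.

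HIF binds DNA at a short core, ACGTG or GCGTG, known as the hypoxia response element. To show how this core lies in front of members that moved, the 250 bases before the transcription start are printed for Bnip3, Egln1 and Pdk1, which fell in both genotypes, and for Adm, which rose. They are RefSeq sequences of GRCm38.p6, the assembly of the mm10 build, 5′ to 3′ on the gene's strand, with each match on either strand in capitals.
Bnip3 (chr7:138909507-138909756, minus strand): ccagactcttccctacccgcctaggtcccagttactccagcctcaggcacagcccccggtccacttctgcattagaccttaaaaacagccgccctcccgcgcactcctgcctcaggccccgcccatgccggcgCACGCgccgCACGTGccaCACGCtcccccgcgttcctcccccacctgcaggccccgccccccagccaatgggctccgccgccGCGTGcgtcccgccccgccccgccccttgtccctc
Egln1 (chr8:124949255-124949504, minus strand): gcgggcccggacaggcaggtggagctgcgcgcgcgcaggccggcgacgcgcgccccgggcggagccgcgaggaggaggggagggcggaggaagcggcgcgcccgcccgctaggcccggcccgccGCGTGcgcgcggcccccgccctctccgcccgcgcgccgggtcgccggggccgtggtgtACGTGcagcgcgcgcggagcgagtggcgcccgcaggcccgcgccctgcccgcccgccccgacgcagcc
Pdk1 (chr2:71872974-71873223, plus strand): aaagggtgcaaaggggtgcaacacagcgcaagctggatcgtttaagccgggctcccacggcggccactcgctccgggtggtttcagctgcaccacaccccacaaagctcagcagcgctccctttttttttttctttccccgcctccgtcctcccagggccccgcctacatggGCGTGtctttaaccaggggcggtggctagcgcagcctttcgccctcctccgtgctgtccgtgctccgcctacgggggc
Adm (chr7:110627407-110627656, plus strand): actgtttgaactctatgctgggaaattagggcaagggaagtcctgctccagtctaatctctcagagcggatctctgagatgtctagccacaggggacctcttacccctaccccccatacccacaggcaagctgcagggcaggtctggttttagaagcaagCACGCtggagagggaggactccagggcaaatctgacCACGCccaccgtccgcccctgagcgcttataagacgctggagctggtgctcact
The Bnip3 window held 4 marked stretches, 1 of which reads CACGTG and so matches on both strands, while Egln1 and Adm held 2 and Pdk1 held 1. The core was thus present in the printed windows of genes that fell and of Adm, which rose. Not all members that moved held it in the window chosen this way, the one nearest the deposited gene start. That window held 0 matches for Hk1, which rose in both genotypes, and for Vegfa, which fell in FNcKO. Each of these genes has 2 windows, and the 0 stands for the nearest one alone. Windows were found for 30 of the 32 members, not for Bnip3l and Ndrg1, and 28 members held the core in at least 1 window. Of their 44 windows 36 held it, or 81.8%, beside 38.6% of all 32851 RefSeq windows of this length. The core contains CG, and the windows were not matched for base content or for the number of windows per gene. The members were also picked by name, partly as known HIF targets. The 2 shares therefore do not show an excess of HIF sites. A match shows only that the letters are there, and members such as Pgk1 and Ldha, which passed in neither genotype, held it too.

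Hif1a, which encodes the regulated subunit HIF-1 alpha, was among the more abundant members. It stood at 1086, 765 and 1088 CPM in WT at 0 h and at 909, 489 and 594 at 48 h, where replicate 1 overlapped the 0 h range (log2 −0.56, SE 0.25, BH-adjusted p = 0.1 by edgeR). Without WT 48 h replicate 1 it passed (−0.85, BH-adjusted p = 0.0273 by edgeR). In FNcKO it stood at 1141, 1085 and 804 CPM and then at 525, 493 and 459, without overlap, and fell 2.05-fold (−1.04, SE 0.25, BH-adjusted p = 0.00909). That call was lost when both 0 h libraries numbered 1 were left out (−0.94, BH-adjusted p = 0.0511 by edgeR). HIF-1 alpha is regulated mainly through its protein, which was not measured.

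Egln1 and Egln3 encode prolyl hydroxylases that mark HIF alpha subunits for degradation, and both are HIF targets themselves. Egln1 was at 126, 148 and 129 CPM in WT at 0 h and 63.7, 79.4 and 88.2 at 48 h, and at 139.6, 146 and 151 and then 91.6, 78.6 and 66.0 in FNcKO. The times did not overlap in either genotype, and Egln1 fell 1.74-fold in WT (log2 −0.80, SE 0.16, BH-adjusted p = 0.00265 by edgeR) and 1.85-fold in FNcKO (−0.88, SE 0.16, BH-adjusted p = 0.00196). Egln3 was at 23.7 ± 0.579 and 22.2 ± 3.39 CPM in WT, with overlap (−0.09, BH-adjusted p = 0.727). In FNcKO it was at 37.3, 33.5 and 26.8 CPM at 0 h and at 17.0, 18.7 and 14.6 at 48 h. There it fell 1.94-fold without overlap (−0.96, SE 0.19, BH-adjusted p = 0.00276 by edgeR) and passed in all 23 alternatives.

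Bnip3 and Bnip3l encode receptors that tag mitochondria for autophagy, and Bnip3l takes part in the clearing of organelles from lens fibers. Bnip3 was at 63.3, 77.9 and 81.3 CPM in WT at 0 h and at 37.1, 39.9 and 48.0 at 48 h. In FNcKO it was at 76.7, 89.7 and 94.1 CPM and then at 42.9, 27.3 and 21.4. No 48 h library reached a 0 h library, and Bnip3 fell 1.78-fold in WT (log2 −0.83, SE 0.22, BH-adjusted p = 0.0122 by edgeR) and 2.84-fold in FNcKO (−1.51, SE 0.23, BH-adjusted p = 0.000557). The WT call was lost without WT 48 h replicate 1 (−0.75, BH-adjusted p = 0.0515 by edgeR), while the FNcKO call passed in all 23 alternatives. Bnip3l fell from 449 ± 68.4 to 187 ± 50.5 CPM in WT (−1.27, SE 0.30, BH-adjusted p = 0.00672) and from 531 ± 67.2 to 197 ± 88.9 in FNcKO (−1.43, SE 0.30, BH-adjusted p = 0.00438), without overlap. In all 4 groups Bnip3l ranked the 3 libraries in the same order as the summed fiber markers, as the plot of members beside that sum shows. It ranked highest in this among the 32 members, and the ranking was not made for all genes. How often such an order arises without a link is thus not known. With the marker sum as a covariate Bnip3l no longer passed in WT (−0.47, BH-adjusted p = 0.14 by edgeR) or FNcKO (−0.64, 0.0824).

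**Figure D4:**
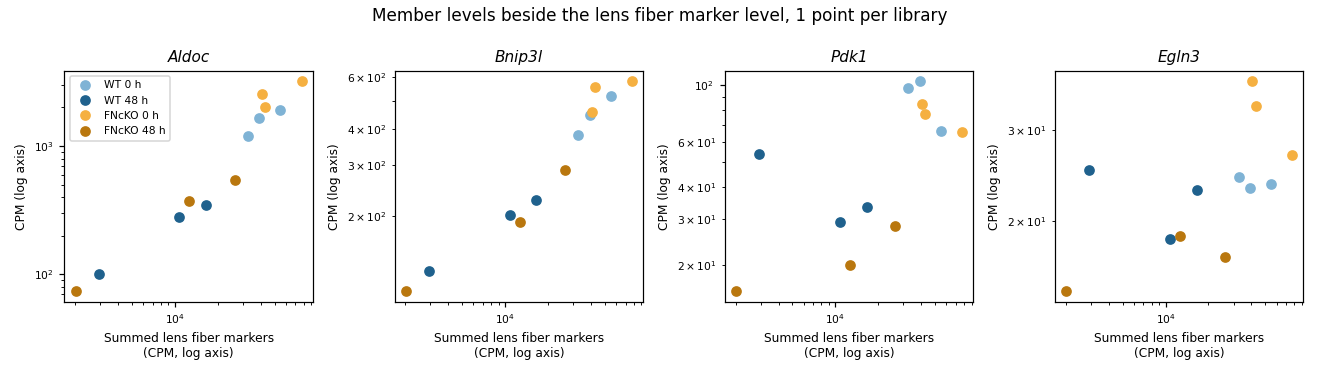
Level in CPM of Aldoc, Bnip3l, Pdk1 and Egln3 against the summed CPM of 14 lens fiber markers, 1 point per library, both axes on a log scale. Aldoc and Bnip3l run along with the marker sum over the 12 libraries, while Pdk1 is lower at 48 h in both genotypes and Egln3 in FNcKO, with overlap of its times in WT; within the groups, Pdk1 ranked the libraries as the sum did in 1 of 4 groups and Egln3 in 0.

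The fiber marker covariate, chosen after the data were seen, bears on the other calls as well. The marker sum itself did not overlap between the times, so the fit separates time from fiber content only in part, and under it 12.1% of all genes passed in WT and 6.54% in FNcKO. In WT the calls of Slc2a1 (log2 −0.51, BH-adjusted p = 0.19 by edgeR), Pfkm (−0.58, 0.0991), Bnip3 (−0.41, 0.289) and Egln1 (−0.53, 0.0749) were lost, as was that of Bnip3l, and those of Aldoc, Pdk1 and Adm remained. The Hk1 call was lost there too with a log2 change no smaller than before (0.87 without and 0.90 with the covariate, BH-adjusted p = 0.163 by edgeR). In FNcKO the calls of Slc2a1 (−0.86, 0.0611), Pfkm (−0.75, 0.0617), Pfkl (−0.70, 0.116), Vegfa (−0.98, 0.209), Egln1 (−0.59, 0.0883) and Adm (3.83, 0.0848) were lost with those of Hk1 (0.99, 0.221), Ldhb (−0.44, 0.437) and Bnip3l. Those of Aldoc, Slc16a3, Pdk1, Hif1a, Bnip3 and Egln3 remained in FNcKO. The log2 changes of Hk1, Pfkl and Vegfa in FNcKO, 0.95, −0.75 and −0.97 without the covariate, thus moved little while their p-values rose. Those of Bnip3l and Aldoc shrank, in WT from −1.27 to −0.47 and from −2.71 to −1.06, although the Aldoc call remained. Since the marker sum and time moved together, fiber cell RNA and a response of the epithelium cannot be fully told apart for any member, whether or not its call remained. Of 7 tested neutrophil markers, 7 rose past the threshold in WT and 6 in FNcKO. Of 11 tested macrophage markers, 5 rose in each genotype, where 19.1% of all genes rose in WT and 14.9% in FNcKO. The part of these cells in the member changes over time was not tested.

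Vegfa encodes the main growth factor of blood vessels. It was at 75.7, 82.3 and 111 CPM in FNcKO at 0 h and at 45.2, 47.5 and 44.7 at 48 h, without overlap, and fell 1.95-fold (log2 −0.97, SE 0.28, BH-adjusted p = 0.0238 by edgeR). The call was lost without FNcKO 0 h replicate 3 (−0.82, BH-adjusted p = 0.0718 by edgeR), without FNcKO 48 h replicate 2 (−0.99, 0.0582) or replicate 3 (−0.95, 0.0787) and with scaling by total counts (−0.66, 0.111). The WT 0 h libraries were far apart, at 39.3, 111 and 81.8 CPM, and held the 48 h libraries, at 54.5, 55.6 and 60.8, within their range (−0.44, BH-adjusted p = 0.245 by edgeR). Without WT 0 h replicate 1 the gene passed in WT (−0.75, 0.0138).

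Adm encodes adrenomedullin, a secreted peptide that widens vessels and a HIF-1 target. It held 5 counts in WT at 0 h, all in replicate 2, and 163 in the 3 WT libraries at 48 h, and 2 counts and 57 counts in FNcKO. Its level at 48 h was 6.38, 2.82 and 6.95 CPM in WT and 1.37, 2.51 and 2.22 in FNcKO, above every 0 h library. A library with 0 counts allows up to 3 counts, or 0.286 to 0.430 CPM by library, for counting error only. The ratio of summed, scaled counts was 30.1 in WT, with an exact 95% counting interval of 12.6 to 93.9, and 24.9 in FNcKO, with an interval of 6.60 to 211. Adm rose past the threshold in both genotypes (BH-adjusted p = 0.00132 by edgeR in WT and 0.00703 in FNcKO), and with so few counts at 0 h the size of the rise is poorly known. At 48 h it remained among the low members, where Egln3 stood at 22.2 and 16.8 CPM.

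Ankrd37, Car9, Ddit4 and Ndrg1 did not pass over time in either genotype. Ankrd37, an ankyrin repeat protein induced by hypoxia, was below 5 CPM throughout, with means of 3.36 and 1.4 CPM in WT and 2.38 and 0.991 in FNcKO (log2 −1.26, BH-adjusted p = 0.0933 by edgeR and −1.24, 0.131). Car9, a carbonic anhydrase of the cell surface that regulates pH, was spread widely within groups, from 8.35 to 31.6 CPM in FNcKO at 48 h. Ddit4, an inhibitor of the growth kinase mTORC1, lay between 14.2 and 27.6 CPM in all 12 libraries. Ndrg1, a stress-induced gene, was at 453 ± 113 and 325 ± 41.8 CPM in WT (log2 −0.48, BH-adjusted p = 0.0891 by edgeR) and passed there with DESeq2 (0.042) and without WT 0 h replicate 3 (−0.64, 0.0471). In FNcKO it was at 376 ± 21.1 and 340.4 ± 55.6 CPM.

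**Figure D5:**
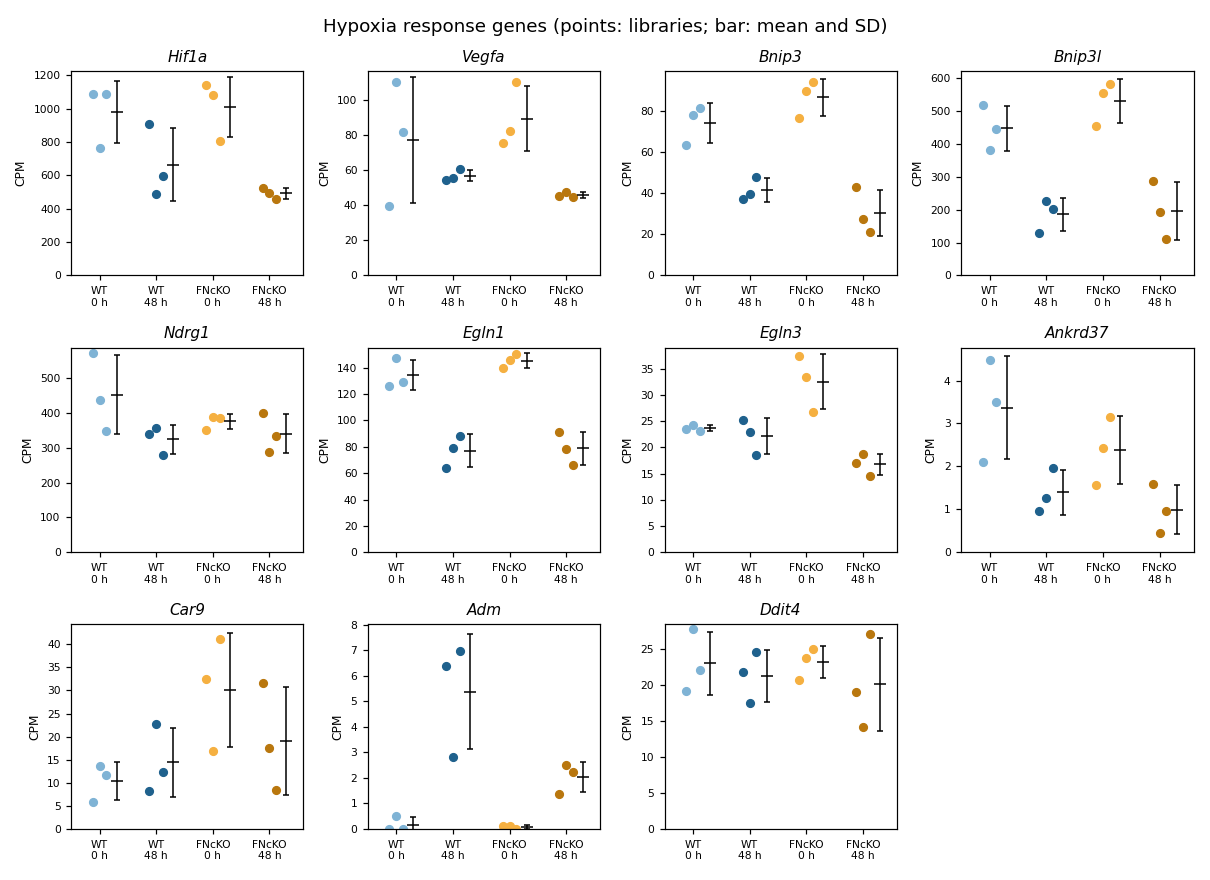
Level in CPM of the 11 hypoxia response genes, 1 point per library, with bars at mean ± SD for each of the 4 groups and a linear axis from 0. Bnip3, Bnip3l and Egln1 lie lower and Adm higher at 48 h in every library of both genotypes.

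The comparison of FNcKO with WT asked what fibronectin does in this response. No member passed the threshold at 48 h, where 0.24% of all genes did (0.0412% higher and 0.199% lower in FNcKO), or at 0 h, where 0.144% did (0.0755% higher and 0.0687% lower in FNcKO). An unadjusted p under 0.05 in edgeR was found for 3 of 31 members at 48 h and 5 at 0 h, beside 5.47% and 11% of all genes. At 48 h these were Slc16a3, Pdk1 and Egln3, and at 0 h Hk2, Gapdh, Pgam1, Egln3 and Car9. DESeq2 and limma called 0 members at either time. At 48 h the genotypes did not overlap for 4 glycolysis genes, Gpi1, Tpi1, Slc16a3 and Pdk1, and for Vegfa and Adm, against 9.74% of all genes. Slc16a3 was 48.8 ± 10.6 CPM in WT and 27.8 ± 2.35 in FNcKO (log2 −0.81, SE 0.25, BH-adjusted p = 0.46 by edgeR). Pdk1 was 38.8 ± 13.1 and 21.3 ± 6.40 CPM (−0.87, SE 0.27, BH-adjusted p = 0.448), and Adm 5.38 ± 2.24 and 2.04 ± 0.591 CPM (−1.4, SE 0.69, BH-adjusted p = 0.972). All 6 genes lay lower in FNcKO. How all genes without overlap split by direction was not counted, so this is not read as a trait of the members. At 48 h the pigment cell markers differed between the genotypes as well, 3 of 8 being lower in FNcKO past the threshold. Of the macrophage, neutrophil, endothelial and photoreceptor markers 0 passed. Of 11, 7, 8 and 10 tested in these 4 lists, 0, 1, 2 and 0 lay higher in FNcKO. Their median log2 differences were −0.89, −1.22, −0.86 and −0.35, against 0.012 over all genes. The genotypes did not overlap for 5, 0, 2 and 0 of them. The part of these cells in the member values was not tested. At 0 h the genotypes did not overlap for Hk2, Aldoc, Pgam1 and Pkm and for Egln3 and Car9, against 16.6% of all genes. These 6 lay higher in FNcKO, and the split of all such genes by direction was not counted here either. Car9 was at 5.82, 13.7 and 11.7 CPM in WT and at 32.4, 16.9 and 41.2 in FNcKO (1.53, SE 0.53, BH-adjusted p = 0.382 by edgeR). Hk2 was at 76.8 ± 14.5 CPM in WT and 116 ± 16.8 in FNcKO (0.59, SE 0.20, BH-adjusted p = 0.358).

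Whether the 48 h response itself differed with genotype was tested as an interaction. It passed for 0 of 31 members and for 0 of all 14560 genes, with 0 members by DESeq2 and by limma and 4 members at an unadjusted p under 0.05 in edgeR (5.05% of all genes). The lowest unadjusted values were those of Egln3 (log2 −0.87, SE 0.26, BH-adjusted p = 0.907 by edgeR) and Slc16a3 (−1.04, SE 0.36, BH-adjusted p = 0.945). The median difference was −0.39 for the glycolysis genes and −0.39 for the hypoxia genes, against −0.0090 over all genes, and 2 of 20 and 2 of 11 were above 0. The calls found in FNcKO and not in WT are therefore not shown to differ between the genotypes. The comparisons share groups, so a high 0 h level or a low 48 h level in FNcKO enters the interaction and the comparisons within and between genotypes alike.

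Neighbouring pathways gave a mixed picture. Each list count below stands beside 19.1% of all tested genes up and 13.5% down in WT, and 14.9% and 9.9% in FNcKO. Of 22 tested genes of other glycolysis and sugar handling, 3 rose and 7 fell in WT and 3 rose and 6 fell in FNcKO. Pgm1, a phosphoglucomutase that links glycogen with glycolysis, rose from 12 ± 0.243 to 29.2 ± 5.02 CPM in WT (log2 1.29, SE 0.18, BH-adjusted p = 0.000265 by edgeR) and from 13 ± 1.68 to 27.6 ± 0.316 in FNcKO (1.08, SE 0.18, 0.00113). Hkdc1, a hexokinase-like enzyme, rose from 1.72 to 10.4 CPM in WT and from 0.811 to 6.29 in FNcKO. Sord, the sorbitol dehydrogenase of the polyol pathway, fell from 134 ± 31.1 to 42.8 ± 14.2 CPM in WT and from 56.9 ± 15.4 to 24.5 ± 4.66 in FNcKO.

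Of 9 pentose phosphate genes, 4 rose and 1 fell in WT and 1 rose and 1 fell in FNcKO. Tkt, the transketolase of its non-oxidative branch, fell from 1848 ± 369 to 735 ± 114 CPM in WT (log2 −1.33, SE 0.27, BH-adjusted p = 0.00262 by edgeR) and from 2763 ± 595 to 922 ± 246 in FNcKO (−1.58, SE 0.27, 0.00125). Pgd, which makes NADPH in the oxidative branch, rose from 50.1 ± 3.94 to 119.9 ± 18.6 CPM in WT (1.26, SE 0.20, BH-adjusted p = 0.000584 by edgeR) and from 59.7 ± 7.49 CPM to 89.0, 77.8 and 133 in FNcKO (0.74, SE 0.20, 0.0161). Prps2, which makes the ribose donor of nucleotide synthesis, rose in WT from 40.0 ± 1.13 to 63.8 ± 13.2 CPM.

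Of 13 genes for the entry of pyruvate into mitochondria, 5 rose and 2 fell in WT and 2 rose and 2 fell in FNcKO. Among the sister kinases of Pdk1, Pdk2 fell from 186 ± 18.9 to 82.3 ± 10.4 CPM in WT (log2 −1.18, SE 0.21, BH-adjusted p = 0.001 by edgeR) and from 215 ± 28.9 to 91.1 ± 27.7 in FNcKO (−1.24, SE 0.21, 0.00102). Pdk4, at lower levels, rose from 1.23 ± 0.297 to 6.78 ± 1.33 CPM and from 1.4 ± 1.22 to 4.38 ± 1.17. Pdp1, a phosphatase that switches pyruvate dehydrogenase on, rose in both genotypes, to 19.4 and 15.3 CPM. Pcx, the pyruvate carboxylase, fell in both, to 20.1 and 23.2 CPM.

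Of 16 genes of oxygen sensing and HIF subunits, 3 rose and 3 fell in WT and 1 rose and 2 fell in FNcKO. Vhl, the ubiquitin ligase part that recognises hydroxylated HIF alpha, fell from 52.5 ± 4.97 to 33.3 ± 4.75 CPM in WT and from 64.9 ± 4.08 to 38.4 ± 3.73 in FNcKO. Cited2, which competes with HIF alpha for its coactivator, fell in both genotypes (log2 −1.07 and −1.37), and Arnt2, a partner subunit, rose in both (1.26 and 1.33).

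Of 41 other HIF targets, 13 rose and 11 fell in WT and 7 rose and 13 fell in FNcKO. Angptl4, a secreted inhibitor of lipoprotein lipase, rose from 3.61 ± 0.858 to 79.1 ± 12.7 CPM in WT (log2 4.45, SE 0.29, BH-adjusted p = 8.93e-07 by edgeR) and from 5.66 ± 1.08 to 102 ± 35.6 in FNcKO (4.17, SE 0.28, 1.83e-06). Narf, named for a prelamin A recognition factor, fell from 65.7 ± 8.61 to 24.6 ± 0.878 and from 66.0 ± 7.03 to 19.3 ± 6.89 CPM. Lox, the collagen cross-linking lysyl oxidase, rose in both and was the only gene of these 5 lists past the threshold between the genotypes at 48 h, at 107 ± 20.2 CPM in WT and 23.4 ± 9.49 in FNcKO (−2.19, SE 0.28, BH-adjusted p = 0.00375 by edgeR). Many of these genes also answer to signals other than oxygen.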

How the data were processed

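RNA was extracted from 12 lens capsule samples and sequenced from TruSeq libraries, per the labels' protocols. The authors deposited a whole-number read count per gene for each library, with gene coordinates on mm10 and a gene length, per the file headers. The deposited RPKM values, per the file headers, equal the count divided by that length and the library total (largest relative difference 5.1e-15) and were not used further. The submitters' processing notes name FastQC, Trim Galore 0.4.4, TopHat2 2.1.0, bedtools 2.17, SAMtools 1.4, HTSeq 0.6.1p1 and edgeR 3.16.5. Annotation, strand setting and the counting of reads with more than 1 match remain not given in the sources used here, so reads of a gene and an overlapping antisense gene, or of close copies, may be mixed. In a combined table deposited with the series, 8 of 9 count columns equal the library they are named for, and the column named for WT 0 h replicate 1 equals FNcKO 0 h replicate 1 in all 24147 genes. The single-library files were used throughout.

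The deposited counts went into edgeR 4.0.16 (R 4.3.3): filterByExpr left 14560 genes, libraries were scaled by TMM (factors 0.754 to 1.165), and a robust quasi-likelihood model with 4 group means covered all 12 libraries. The 5 comparisons were 48 h against 0 h in each genotype, FNcKO against WT at each time, and the difference of the 48 h responses, with p-values adjusted after Benjamini and Hochberg across the tested genes. SEs are approximate and were taken from the log2 value and its F statistic. Where nothing shows separate animals, p-values measure only the spread between these samples. Alternatives used DESeq2 1.42.0, limma 3.58.1, other scalings and filters, and each library left out. Same-numbered libraries of different groups did not deviate together (correlations from −0.474 to 0.291), so no block was used. The members, the other lists and the markers were chosen with earlier results of these data known; all members are reported, and from each other pathway list up to 4 genes with the smallest adjusted p over time are named, except 1 that is not reported here. Eno1b and Fn1 stand outside that rule. Symbols not found in the files were Adgre1, Ly6g, Tigar, Eloc and Elob.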

Additional observations from a re-analysis of the deposited data

How the results depend on the processing

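In the 2 comparisons over time, 7 of the 24 member calls passed in every one of the 23 alternatives, 21 planned and 2 added after the data were seen: Aldoc and Pdk1 in both genotypes, Adm in WT, and Bnip3 and Egln3 in FNcKO. Leaving out 1 library at a time gave 3 to 5 glycolysis calls in WT, lowest without WT 0 h replicate 3, and 5 to 9 in FNcKO, lowest without FNcKO 0 h replicate 3, beside 5 and 8 with all libraries. With the fiber marker sum as a covariate, 2 glycolysis and 1 hypoxia genes passed in WT and 3 and 3 in FNcKO. Scaling by total counts raised the share of higher calls among all genes from 58.5% to 76.3% in WT and from 60.1% to 82.4% in FNcKO, with 7 glycolysis and 4 hypoxia calls in WT and 6 and 6 in FNcKO. Between the genotypes, and for the difference of the responses, 0 members passed in any alternative; the fit of only the groups compared does not apply to that difference.

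With the replicate number as a replicate block, 4 glycolysis and 4 hypoxia genes passed in WT, 8 and 7 in FNcKO, and 0 in the other comparisons; Hk1 in WT was the call lost. The numbers only name samples here. Of 3533 single member values under the alternatives, 150 changed sign, and none of these was past the threshold with either sign. With 3 libraries a group, changes of 2 to 3 times their SE often missed the threshold, so a missed call does not bound a change, and counts under 3 per library set the floor for Adm.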
